A study of Mus musculus with 10 samples.

Results

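The replication-dependent histone genes were examined in whole brains of young adult mice that had been exposed to alcohol before and shortly after birth. These genes lie in the groups once named Hist1h, Hist2h, Hist3h and Hist4h, and a probe set was included when it was listed for 1 gene and that gene carries such an older symbol in the RefSeq gene table. By this rule 31 probe sets for 31 genes were found among 21789 probe sets with 1 gene symbol, which stand for 19938 genes. They comprised 5 H1, 5 H2A, 11 H2B, 3 H3 and 7 H4 genes, 1 of them (H2bu1-ps, older symbol Hist3h2bb) a pseudogene. The RefSeq table holds 70 genes with such a symbol, and the other 39 had no probe set of their own on this array. A further 27 probe sets were listed for 2 to 20 genes with at least 1 of these histones among them, and were set aside because their signal cannot be given to 1 gene.

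The mice were male offspring of C57BL/6J dams, killed at postnatal day 70. Dams of the ethanol groups could drink 10% ethanol in water or water, before mating, through pregnancy and until postnatal day 10 of the pups. Dams of the control groups had water alone. Experiment 1 had 2 ethanol and 2 control arrays, each with the pooled RNA of 3 brains, and experiment 2 had 3 ethanol and 3 control arrays, each with the pooled RNA of 2 brains. The pool sizes come to 12 mice in each experiment if no mouse was in more than 1 pool. Pooling was meant to lessen litter effects, but the litter of each mouse is not in the labels, and the p-values below reflect only how far pools of a group lay apart. Neither ethanol intake nor blood alcohol is in the labels.

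Histones are the proteins around which DNA is wound. H2A, H2B, H3 and H4 form the core of the nucleosome, and H1, the linker histone, binds the DNA between nucleosomes. Replication-dependent histone genes are small, mostly lack introns, and are transcribed during S phase, when new chromatin has to be packed. Their mRNAs end in a stem-loop bound by the protein Slbp instead of a poly(A) tail. Most cells of the adult brain no longer divide and draw on replacement variants such as H3f3a and H3f3b, which are made outside S phase. In differentiated human cells some replication-dependent genes, among them those of the human counterparts of H1f2, H2bc4 and H2bc21, also give polyadenylated mRNA. The labels describe whole-transcript labelling of total RNA, and which of these RNA forms it captured was not tested.

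The promoters of these genes carry elements that are more common in some classes than in others, shown here because the choice of genes did not use them. RefSeq sequences of the GRCm38.p6 build, 250 bases before to 50 bases after the start, matched 26 of the 31 genes. Searched on both strands, CCAAT was in 22 of the 26 windows, against 37.4% of all 32851 promoter windows of the table. It was in 5 of 5 H1, 5 of 5 H2A, 8 of 8 H2B and 2 of 2 H3 windows, but in 2 of 6 H4 windows. The octamer ATTTGCAT was in 4 of 5 H2A and 5 of 8 H2B windows and in 0 of the H1, H3 and H4 windows, against 1.74% of all windows. It lay on the strand of the gene in the H2B windows and on the other strand in the H2A windows. The windows of H2ac8 and H2bc8 overlap, as do those of H2ac1 and H2bc1. Matches between their starts, the octamer among them, are therefore counted for both genes of a pair. The heptamer AAACACA, known as the AC box of H1 promoters, was in 4 of 5 H1 windows, against 7.18% of all windows, and also in 2 H2A and 2 H2B windows. TATAAA was in 16 of the 26, against 13.6%. None of these motifs is contained in another, and a match is a run of letters only.

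The linker histone promoters, 5′ to 3′ over the 130 bases before the start, are printed in lower case with matches to the 4 motifs, on either strand, in capitals.
H1f2, chr13:23738677-23738806, plus strand: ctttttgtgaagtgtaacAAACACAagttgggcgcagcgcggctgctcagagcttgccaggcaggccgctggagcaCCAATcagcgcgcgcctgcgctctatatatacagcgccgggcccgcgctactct
H1f3, chr13:23554902-23555031, plus strand: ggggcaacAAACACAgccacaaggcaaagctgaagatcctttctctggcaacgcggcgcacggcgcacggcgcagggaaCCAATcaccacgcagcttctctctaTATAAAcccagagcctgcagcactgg
H1f5, chr13:21780626-21780755, minus strand: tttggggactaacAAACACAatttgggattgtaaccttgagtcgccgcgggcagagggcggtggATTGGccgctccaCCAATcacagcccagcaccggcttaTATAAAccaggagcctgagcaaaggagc
H1f6, chr13:23695681-23695810, plus strand: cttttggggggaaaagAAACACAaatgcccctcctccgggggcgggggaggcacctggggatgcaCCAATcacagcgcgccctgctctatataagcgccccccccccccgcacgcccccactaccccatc
H1f1, chr13:23763538-23763667, plus strand: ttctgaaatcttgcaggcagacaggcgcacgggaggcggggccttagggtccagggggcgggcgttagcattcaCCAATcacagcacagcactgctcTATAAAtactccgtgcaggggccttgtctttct
In the first 4 of these the AC box begins between positions -122 and -112 and a CCAAT on the same strand between -65 and -51. H1f1 has the CCAAT at -56 but no AAACACA.

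The core histone promoters show the other layouts. H2bc8 and H2ac8 are transcribed away from each other from starts with 179 bases between them, and the stretch below is that whole interval read in the direction of H2bc8.
H2bc8 and H2ac8, chr13:23571221-23571399, plus strand: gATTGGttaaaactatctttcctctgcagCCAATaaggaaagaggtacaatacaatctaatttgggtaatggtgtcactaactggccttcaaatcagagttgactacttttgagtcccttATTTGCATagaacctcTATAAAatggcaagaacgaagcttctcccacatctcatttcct
H2bc14, chr13:21721914-21722043, plus strand: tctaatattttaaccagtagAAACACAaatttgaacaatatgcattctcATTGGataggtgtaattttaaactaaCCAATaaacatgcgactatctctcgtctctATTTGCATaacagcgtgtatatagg
H2bc3, chr13:23746604-23746733, plus strand: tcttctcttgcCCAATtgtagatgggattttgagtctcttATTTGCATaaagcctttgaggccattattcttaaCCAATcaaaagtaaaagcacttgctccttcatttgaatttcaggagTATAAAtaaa
H4c8, chr13:23530914-23531043, plus strand: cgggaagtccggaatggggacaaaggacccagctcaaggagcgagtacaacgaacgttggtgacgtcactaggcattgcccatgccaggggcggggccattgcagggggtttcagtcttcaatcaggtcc
H4c4, chr13:23581438-23581567, plus strand: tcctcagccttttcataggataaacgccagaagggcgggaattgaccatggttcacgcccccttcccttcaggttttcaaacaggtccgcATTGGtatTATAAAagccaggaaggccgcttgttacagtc
Array values of these genes are given below, except for H2bc8, for which only the mean signal and the differences are. The H4c8 stretch holds 0 of the 4 motifs.

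The deposited values are log2 signals per probe set, which ran from 4.27 to 15.4 over the whole table. Array medians were 6.99 to 7.05, and correlations between arrays were 0.989 to 0.996. For every probe set the mean of experiment 1 equalled that of experiment 2 to within 5.83e-05, so levels cannot be compared between the experiments, and every comparison below is made within them or with experiment as a term. The neuronal genes Snap25 and Syt1 lay at the 99.9 and 99.7 percentiles of mean signal over the probe sets with 1 symbol. The proliferation genes Mki67, Cenpf and Cdk1 lay at the 24.6, 9.09 and 4.59 percentiles. Some other genes of S phase were brighter, with Rrm1, Ccne1 and Pcna at the 66.4, 77.4 and 92.3 percentiles. In bulk tissue, fewer cells of a type and less RNA per cell cannot be told apart.

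Signals of the histone probe sets covered most of the range of the array. Mean signals over the 10 arrays ran from 5.23 log2 units for H1f6 to 12.0 for H4c4. Of the 31 probe sets, 5 lay above the 75th percentile of all tested probe sets (9.25), 9 lay above the median (7.37), and 4 lay below the 25th percentile (5.87). Signal depends on each probe set's own sequence, so these positions do not rank transcripts by abundance.

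The 5 brightest probe sets came from 4 classes. They were H4c4 (older symbol Hist1h4d), H2bc4 (Hist1h2bc, 11.3), H2aw (Hist3h2a, 10.5), H1f2 (Hist1h1c, 10.0) and H4c14 (Hist2h4, 9.82). H1f2 encodes a linker histone found in many somatic cells. The H4 genes encode the same protein and are close copies, so a probe set listed for 1 of them may also take up RNA of others.

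Another 4 lay between the median and the 75th percentile, namely H2ac15 (9.23), H2bc9 (8.15), H2bc8 (8.14) and H4c6 (7.85), and the other 22 lay below the median. Among H1 genes, H1f1, H1f5 and H1f3 had 7.31, 6.93 and 6.72 log2 units. The 3 H3 probe sets had the lowest median of the classes, 5.51, with H3c15, H3c7 and H3c4 at 5.46, 5.51 and 7.22. The testis-specific linker histone H1f6 (Hist1h1t) lay at the 3.30 percentile, and the testis core histones H2bc1 (Hist1h2ba) and H2ac1 (Hist1h2aa) at the 16.9 and 48.0 percentiles.

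**Figure D1:**
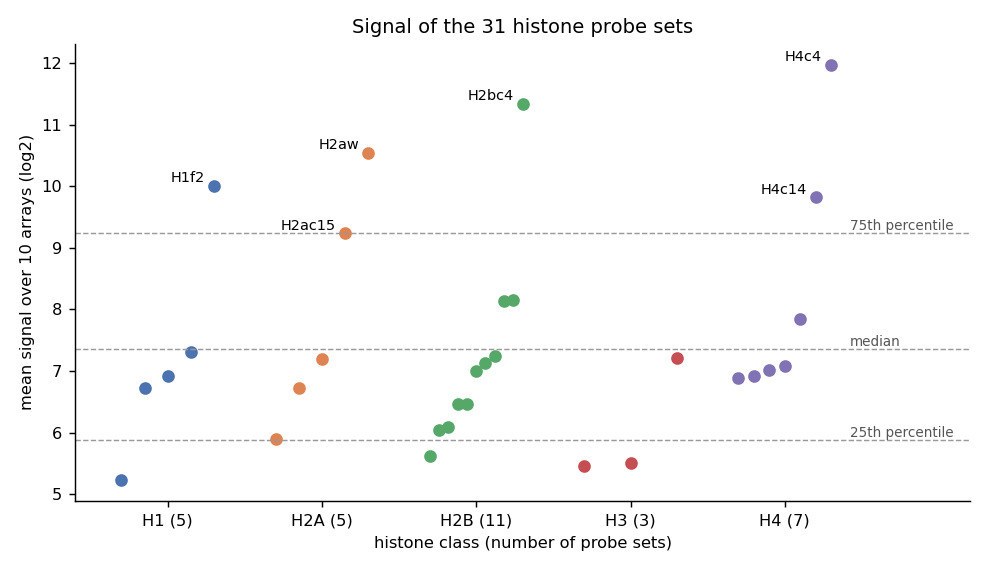
Mean log2 signal over the 10 arrays for each of the 31 histone probe sets (points), by class, with the 25th, 50th and 75th percentiles of mean signal over all tested probe sets as dashed lines. H4c4, H2bc4, H2aw, H1f2 and H4c14 lie above the 75th percentile, and 22 of the 31 points lie below the median line.

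The residual standard deviation within groups had a median of 0.0956 log2 units for the histone probe sets, against 0.0809 for all tested probe sets. It ran from 0.0448 for H2aw to 0.206 for H4c6, and H2bc14 (0.172) and H3c7 (0.186) were also among the most variable.

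Over both experiments the histone genes showed no difference between ethanol and control brains that passed the test. limma, fitted to all 21789 probe sets with a term for experiment, called 0 histone probe sets at adjusted p 0.05, against 0% of all probe sets. Differences, as ethanol minus control, ran from -0.22 to 0.15 log2 units with a median of 0.01, against a median of -0.01 over all probe sets. Ethanol pools had the higher mean for 16 of the 31 and the lower mean for 15, and 45.6% of all probe sets were higher. That split depended on the scaling, with 21 of the 31 higher after quantile normalization and 22 with each array centred on its median. Unadjusted p was under 0.05 for 3 histone probe sets, against 12.4% of all probe sets. Of these, 1 was higher, against 4.72%, and 2 were lower, against 7.68%. The share of the histones, 3 of 31, was no larger than that of the array. An unmoderated linear model likewise called 0 after adjustment, with 1 below an unadjusted p of 0.05.

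The classes overlapped widely. The median differences over both experiments were 0.03 for the 5 H1 genes, -0.00 for the 5 H2A genes, -0.02 for the 11 H2B genes, 0.03 for the 3 H3 genes and 0.02 for the 7 H4 genes. Of the H4 genes 6 were higher, and of the H2B genes 8 were lower.

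H2bc21 (Hist2h2be) had the smallest p of all the histone genes. It encodes an H2B, and its human counterpart is among the genes with polyadenylated transcripts. It had 6.95 and 6.97 log2 units in the ethanol pools of experiment 1, against 7.07 and 7.00 in the control pools. Experiment 2 gave 6.89, 6.86 and 7.01 in the ethanol pools, against 7.13, 7.10 and 7.00 in the control pools. All 5 ethanol pools lay below the control mean of their experiment, as they did for 11.9% of all probe sets. Among the histones this held for H2bc21 and H2bc14, while 0 had all 5 ethanol pools above the control mean, against 7.52% of all probe sets. For H2bc21 the groups were apart in experiment 1 and overlapped by 1 pool in experiment 2. The difference was -0.12 ± 0.05 (SE, limma, adjusted p = 0.341).

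H2bc14 (Hist1h2bm), another H2B gene, had the largest difference, -0.22 ± 0.09 (limma, adjusted p = 0.353). On the ethanol arrays of experiment 1 it had 7.19 and 7.19, against 7.45 and 7.15 in the control pools. In experiment 2 it had 7.30, 6.82 and 7.17 in the ethanol pools, against 7.46, 7.40 and 7.32 in the control pools. The groups overlapped in experiment 1, and in experiment 2 ethanol replicate 2 lay furthest below.

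H4c8 (Hist1h4h) was the gene with the smallest p among those higher in the ethanol pools, at 0.15 ± 0.06 (limma, adjusted p = 0.375). It had 7.24 and 7.20 in the ethanol pools of experiment 1, against 7.08 and 6.81 in the control pools. In experiment 2 it had 7.01, 7.18 and 7.16 in the ethanol pools, against 6.97, 7.07 and 7.11 in the control pools. Its groups were apart in experiment 1 and overlapped in experiment 2. With control pool 2 of experiment 1 left out, the difference over both experiments was 0.0911.

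H1f2, the brightest H1 gene, differed by -0.12 ± 0.08 log2 units over both experiments (limma, adjusted p = 0.542), with a 95% interval of -0.29 to 0.05. The brightest H4, H2A and H2B genes differed little. H4c4 differed by 0.01 ± 0.05 log2 units, with a 95% interval of -0.09 to 0.11. H2aw differed by -0.00 ± 0.04, with an interval of -0.09 to 0.08. H2bc4 differed by -0.01 ± 0.05, with an interval of -0.13 to 0.11. The signs for H2aw and H2bc4 turned positive under quantile normalization and with each array centred on its median. A p above the threshold does not show equal levels.

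Pool by pool, H4c4 read 11.93 and 11.98 in the ethanol pools of experiment 1, where the control pools read 12.00 and 11.98. In experiment 2 it read 12.08, 11.98 and 11.93 with ethanol, and 12.03, 11.95 and 11.87 without. H2aw read 10.52 and 10.52 with ethanol in experiment 1, against 10.55 and 10.57, and in experiment 2 it read 10.58, 10.54 and 10.53, against 10.55, 10.59 and 10.45 in the control pools. At full precision both genes had each ethanol pool of experiment 1 below each control pool, and the groups overlapped in experiment 2.

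H2bc4 read 11.38 and 11.39 with ethanol in experiment 1, against 11.42 and 11.19 in the control pools. Values in experiment 2 were 11.38, 11.32 and 11.21 with ethanol, against 11.42, 11.36 and 11.36. The groups overlapped in both experiments.

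Among the H3 genes, which encode the core histone with the best-known modified tail, H3c4 (Hist1h3d) differed by 0.03 ± 0.06, with an interval of -0.09 to 0.15. It read 7.18 and 7.36 with ethanol in experiment 1, against 7.08 and 7.24, and 7.32, 7.13 and 7.17 in experiment 2, against 7.23, 7.26 and 7.19 in the control pools. H3c7 (Hist1h3f) differed by 0.09 ± 0.09. Its control pools of experiment 1 lay furthest apart, at 5.24 and 5.66, around ethanol pools at 5.56 and 5.57. Experiment 2 gave 5.59, 5.71 and 5.33 with ethanol, against 5.59, 5.50 and 5.32. Both H3 genes overlapped in both experiments.

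The members whose human counterparts have polyadenylated transcripts, H2bc21, H1f2 and H2bc4, all had negative differences over both experiments, with a median of -0.12 log2 units. In experiment 1, 2 of these 3 were above 0. The H2bc4 difference over both experiments, -0.0127, turned to 0.0156 after quantile normalization and 0.0167 with each array centred on its median. H1f2 and H2bc4 had mean signals above 9.25 log2 units, where 22.5% of all probe sets were positive over both experiments. H2bc21 lay between 5.87 and 7.37, where 57.9% were.

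The testis histones gave positive differences of 0.08 ± 0.06 for H1f6, 0.04 ± 0.04 for H2ac1 and 0.07 ± 0.05 for H2bc1, with adjusted p of 0.582, 0.673 and 0.578 by limma. H1f6 and H2bc1 lie among the dimmest 25% of probe sets, where 79.3% of all probe sets were higher in the ethanol pools.

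**Figure D2:**
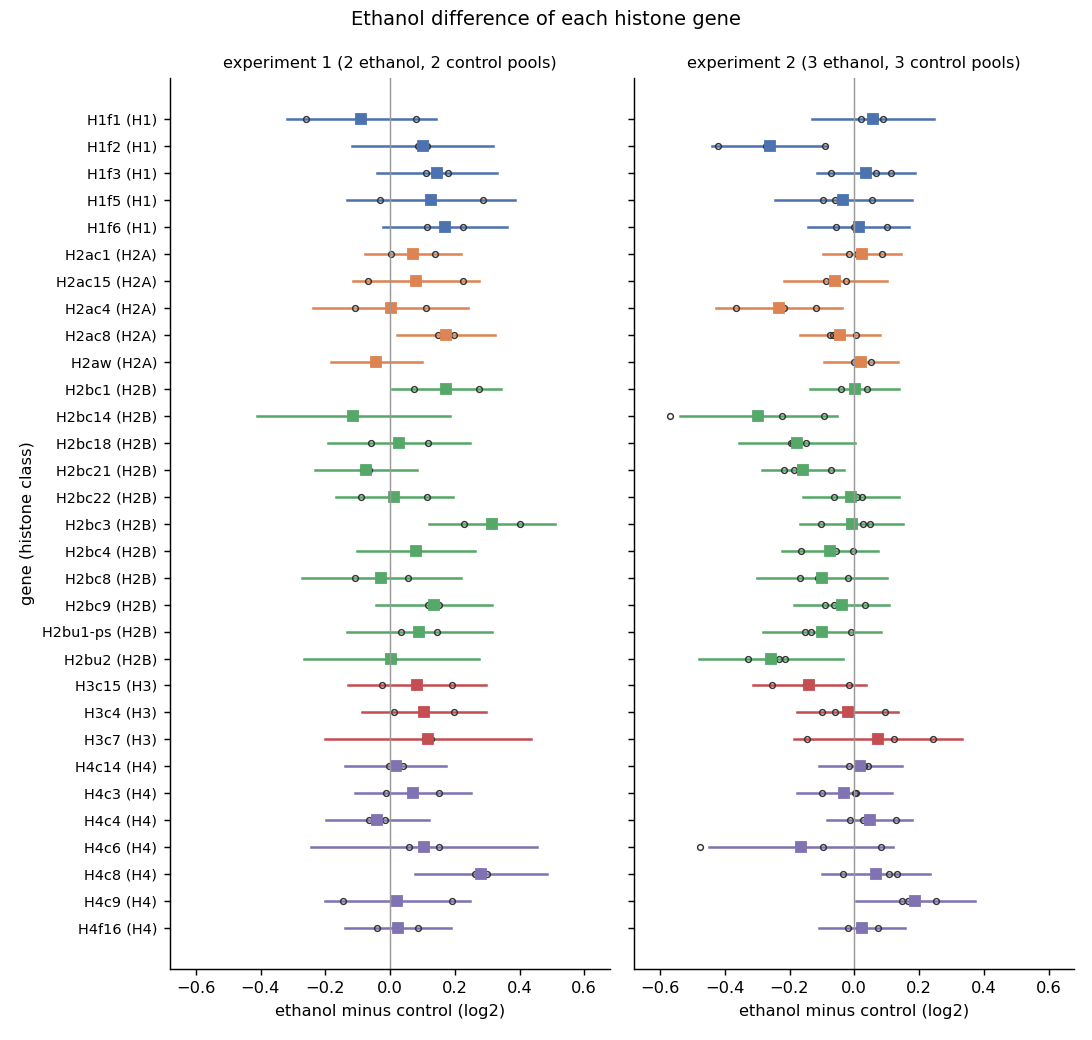
Ethanol minus control difference in log2 units for each of the 31 histone genes in experiment 1 (left) and experiment 2 (right). Squares are the fitted differences with 95% intervals, coloured by class, and open circles are single ethanol arrays minus the control mean of their experiment. In experiment 1, 25 squares lie to the right of 0, and in experiment 2, 12 do.

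Within experiment 1 most histone genes had a positive difference. The ethanol mean exceeded the control mean for 25 of 31 genes, against 48.2% of all probe sets, and the median difference was 0.08 log2 units, against -0.00. limma called 0 at adjusted p 0.05, against 0% of all probe sets. Unadjusted p was under 0.05 for 4 genes, against 8.95% of all probe sets. All 4 were higher, against 4.02%, and 0 were lower, against 4.93%. The 4 were H2bc3, H4c8, H2ac8 and H2bc1. The positive count included 4 of the 5 H1, 4 of the 5 H2A, 8 of the 11 H2B, 3 of the 3 H3 and 6 of the 7 H4 genes.

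The count varied with single pools. Relative to the control mean, the histone median stood at 0.04 in ethanol pool 1 and at 0.11 in ethanol pool 2. With ethanol pool 2 or control pool 2 left out, 18 of 31 differences were positive, and with ethanol pool 1 left out, 23 were. Of 9 markers of cycling cells measured (Mki67, Cdk1, Cenpf and others), 7 were higher in experiment 1, where 48.2% of all probe sets were. Their median was 0.13, and 0 had an unadjusted p under 0.05. All but Rrm2 and Top2a had mean signals below 5.87 log2 units, a range where 73% of all probe sets were higher in experiment 1. The 9 markers averaged 5.76 and 5.78 log2 units in the ethanol pools of experiment 1, against 5.69 and 5.67 in its control pools. In experiment 2 they averaged 5.70, 5.70 and 5.76 with ethanol, against 5.75, 5.68 and 5.75. Their part in the histone values was not tested.

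H2bc3 (Hist1h2bb), an H2B gene, had the smallest p in experiment 1. It had 6.54 and 6.71 log2 units in the ethanol pools, against 6.39 and 6.23 in the control pools, with no overlap. The difference was 0.32 ± 0.09 (limma, adjusted p = 0.384). In experiment 2 it had 6.50, 6.37 and 6.52 in the ethanol pools, against 6.46, 6.55 and 6.39 in the control pools, and the groups overlapped (-0.01 ± 0.07).

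H4c8, given above, differed by 0.28 ± 0.09 in experiment 1 (limma, adjusted p = 0.426). That value was 0.145 without control pool 2 and 0.416 without control pool 1. H2ac8 (Hist1h2ae), an H2A gene, had 6.79 and 6.84 in the ethanol pools, against 6.58 and 6.72 in the control pools, a difference of 0.17 ± 0.07 (limma, adjusted p = 0.503). In experiment 2 H2ac8 had 6.69, 6.76 and 6.68 in the ethanol pools, against 6.81, 6.75 and 6.71 in the control pools. Its direction there was the opposite, with overlap. The experiment 1 difference of H2ac8 was 0.102 without control pool 1 and 0.242 without control pool 2.

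In all, the ethanol and control arrays of experiment 1 did not overlap for 11 histone genes, 8 higher and 3 lower. With 2 arrays a group, 34.3% of all probe sets did not overlap, 15.1% higher and 19.2% lower.

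Within experiment 2 the histone genes had differences of both signs. Of the 31, 12 were positive, against 45.1% of all probe sets, and the median difference was -0.03 log2 units, against -0.01. With each array centred on its median 16 were positive, with a median of 0.00127. With 1 pool left out at a time, 8 to 16 were positive, and the median ran from -0.0461 to 0.0053, above 0 without control pool 2 of experiment 2. limma called 0 at adjusted p 0.05, against 0% of all probe sets. Unadjusted p was under 0.05 for 6 genes, against 9.97% of all probe sets. Of these 5 were lower, against 6.19%, and 1 was higher, against 3.78%.

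By class, 10 of the 11 H2B genes had a negative difference, with a median of -0.10. The H2B median relative to the control mean stood at -0.09, -0.06 and -0.15 in the ethanol pools, against 0.04, 0.06 and -0.08 in the control pools, so control pool 3 lay within the range of the ethanol pools. Medians of the other classes were 0.01 for H1, -0.04 for H2A, -0.02 for H3 and 0.02 for H4, where 5 of 7 genes were positive.

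The 5 lower genes were H1f2, H2bc21, H2bc14, H2ac4 and H2bu2, and the 1 higher gene was H4c9. H1f2 had the smallest p. It had 9.72, 9.87 and 10.05 log2 units in the ethanol pools, against 10.26, 10.06 and 10.11 in the control pools, so that each ethanol array lay below each control array. The difference was -0.26 ± 0.08 (limma, adjusted p = 0.371). In experiment 1 the same gene had 10.08 and 10.05 in the ethanol pools, against 9.95 and 9.97 in the control pools, each ethanol array above each control array.

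H2bc21 and H2bc14 differed by -0.16 ± 0.06 and -0.30 ± 0.11 in experiment 2, with limma adjusted p of 0.417 and 0.427. The H2bc14 value was -0.159 without ethanol pool 2 and -0.398 without ethanol pool 1. H2ac4 (Hist1h2ab), an H2A gene, had 5.80, 5.90 and 5.66 in the ethanol pools, against 6.09, 5.99 and 5.98 in the control pools, with no overlap and a difference of -0.23 ± 0.09 (limma, adjusted p = 0.434). In experiment 1 it had 5.80 and 6.02 in the ethanol pools, against 6.04 and 5.77 in the control pools, a range that held both ethanol values.

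The genes H2bu2 and H4c9 were named after their values were seen. H2bu2 (Hist3h2ba), an H2B gene, had 5.99, 6.01 and 5.89 in the ethanol pools of experiment 2, against 6.30, 6.34 and 6.03 in the control pools. H4c9 (Hist1h4i) had 6.95, 7.04 and 6.94 in the ethanol pools, against 6.78, 6.89 and 6.69 in the control pools. Neither pair of groups overlapped, and the differences were -0.26 ± 0.10 and 0.19 ± 0.08 (limma, adjusted p = 0.439 and 0.481). H4c9 was the only histone gene with every ethanol array above every control array of experiment 2.

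No overlap was seen for 6 histone genes in experiment 2, 5 lower and 1 higher. Over all probe sets 19.2% did not overlap, 11.6% lower and 7.62% higher. No histone gene was free of overlap in the same direction in both experiments, where 4.29% of all probe sets were. H1f2 was free of overlap in opposite directions, where 1.95% of all probe sets were.

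**Figure D3:**
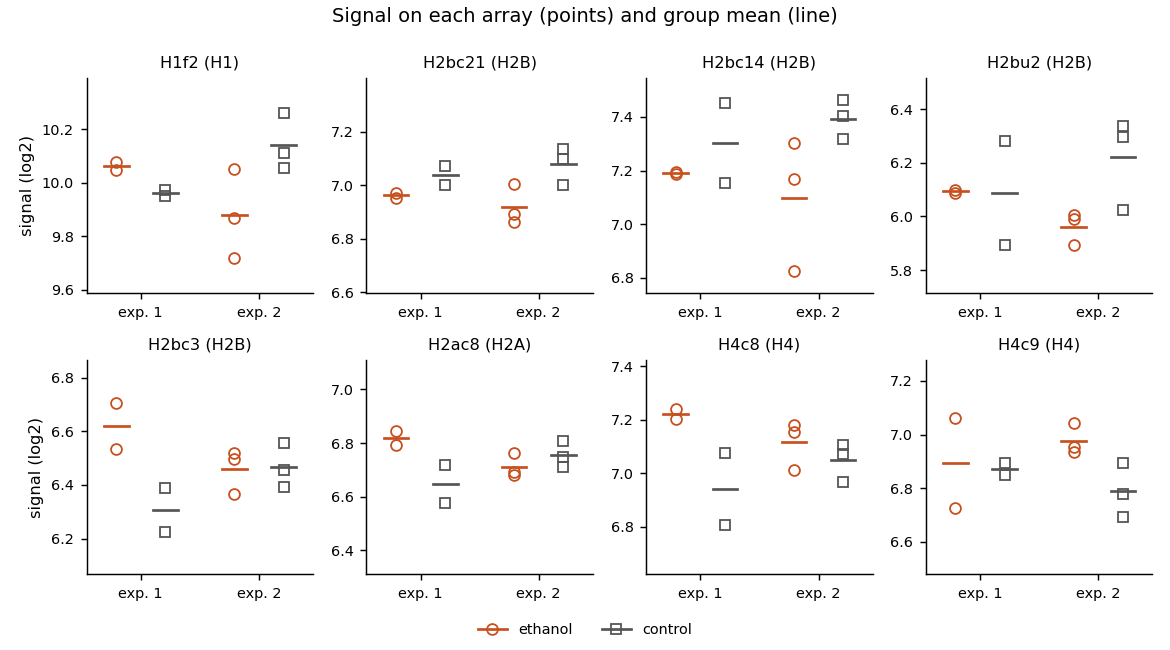
Log2 signal of 8 histone genes on each array (points) with the group mean (line), ethanol left of control, by experiment. Every panel spans 0.8 log2 units. H1f2 lies above the controls on both ethanol arrays of experiment 1 and below them on the 3 ethanol arrays of experiment 2.

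The difference between the experiments was tested with an interaction term. Of the 31 histone genes 25 had a lower ethanol difference in experiment 2 than in experiment 1, 11 of the 11 H2B genes among them, with a median of -0.155 log2 units. The other 6 of 31 were higher, against 47.3% of all probe sets, whose median was -0.01. limma called 0 histone genes at adjusted p 0.05, against 0% of all probe sets. Unadjusted p was under 0.05 for 3 genes, against 6.57% of all probe sets. All 3 were lower in experiment 2, against 3.24%, and 0 were higher, against 3.33%. They were H1f2 (-0.36 ± 0.13), H2bc3 (-0.32 ± 0.12) and H2ac8 (-0.22 ± 0.09), with limma adjusted p of 0.696, 0.696 and 0.745. With control pool 2 of experiment 1 left out, the histone median was -0.0774. The signs of the differences of the 2 experiments were opposite for 19 of the 31 genes, where 42.5% of all probe sets had opposite signs.

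Direction varied with signal level over the whole array, and the histone genes were set against that. In experiment 1 the 18 histone genes between the 25th and 50th percentiles of mean signal held 15 positive differences, with a median of 0.05, against 57.8% positive and a median of 0.02 for all probe sets of that range. The 4 below the 25th percentile were all positive, against 73.0% there. The 4 between the 50th and 75th percentiles held 3 positive, against 29.3%, and the 5 above the 75th held 3, against 32.8%. In experiment 2 the positive counts, in order of signal, were 3 of 4, 6 of 18, 0 of 4 and 3 of 5, against 69.5%, 55.1%, 29.0% and 26.8% of all probe sets.

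Position in the genome gave no uniform direction. The RefSeq table puts 23 of the 31 genes on chromosome 13, 4 on chromosome 3, 3 on chromosome 11 and 1 on chromosome 6. The 23 of chromosome 13 had a median difference of 0.03 over both experiments, with 14 positive, and the other 8 a median of -0.04, with 2 positive.

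Among the genes with a promoter window, 2 pairs start close together and face away from each other. H2ac8 and H2bc8, whose shared interval is printed above, differed by 0.17 and -0.03 in experiment 1 and by -0.04 and -0.10 in experiment 2. The testis pair H2bc1 and H2ac1, with 280 bases between their starts, differed by 0.17 and 0.07 in experiment 1 and by 0.00 and 0.03 in experiment 2. The difference between the genes of a pair was not tested.

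Replacement histone variants mostly had negative differences, though 0 passed the test. Of 9 measured 8 were below 0 over both experiments and 1 above, where 45.6% of all probe sets were above. The median was -0.07 log2 units, against -0.01 over all probe sets. limma called 0 at adjusted p 0.05, and 2 of the negative ones had an unadjusted p under 0.05, against 7.68% of all probe sets. H2ax, the variant phosphorylated at DNA breaks, differed by -0.24 ± 0.05 (limma, adjusted p = 0.263). Macroh2a1 and Macroh2a2, large H2A variants, differed by -0.11 ± 0.05 and -0.11 ± 0.06, and H3f3a by -0.07 ± 0.05. H2ax, H1f10, Macroh2a2, Macroh2a1, H2az2 and H2az1 had mean signals above the median of all tested probe sets. H3f3a, Cenpa and H2aj lay between the 25th percentile and that median. Over both experiments 57.9% of all probe sets in that lower range were positive. From the median to the 75th percentile 22.7% were, and above it 22.5% were.

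H2ax had the smallest p of the variants. Its ethanol differences were -0.13 in experiment 1 and -0.32 in experiment 2. Replacement variants as a list had a median of 0.00 in experiment 1 and -0.105 in experiment 2. In experiment 2, 8 of 9 were below 0 and 1 above, where 45.1% of all probe sets were above. By the same signal ranges, from dim to bright, 55.1%, 29.0% and 26.8% of all probe sets were above 0 in experiment 2. The sign counts of the variants were not tested against signal level.

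Factors that transcribe histone genes or process their mRNA also mostly had negative differences. Of 14 measured 12 were below 0, with a median of -0.08, and limma called 0 at adjusted p 0.05. Unadjusted p was under 0.05 for 2, against 12.4% of all probe sets, and both were negative, against 7.68%. Cpsf2, a subunit of the complex that cuts histone pre-mRNA, differed by -0.15 ± 0.05 (limma, adjusted p = 0.316). Casp8ap2, which recruits that complex, differed by -0.16 ± 0.06 (limma, adjusted p = 0.344). Cpsf3, the nuclease of the complex, and Ncbp2, a cap-binding subunit, differed by -0.09 ± 0.04 and -0.10 ± 0.05. These 4 probe sets lay at the 65.0 to 90.1 percentiles of signal. Of all probe sets between the 50th and 75th percentiles 22.7% were positive over both experiments, and above the 75th 22.5% were.

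Histone chaperones, which carry new histones to DNA, went both ways. Of 11 measured 4 were higher and 7 lower, where 45.6% of all probe sets were higher, with a median of -0.01 and 0 at adjusted p 0.05. The paralogs Asf1a and Asf1b, which bind H3 and H4, differed by -0.20 ± 0.05 and 0.18 ± 0.05, with limma adjusted p of 0.306 for both. Npm1, nucleophosmin, differed by -0.19 ± 0.06 and Chaf1b, a subunit of the chromatin assembly factor, by 0.07 ± 0.05.

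Genes of S phase and mitosis were split over both experiments. Of 32 measured 17 were higher and 15 lower, where 45.6% of all probe sets were higher. Their median was 0.01, and limma called 0 at adjusted p 0.05. In experiment 1, 20 were higher and 12 lower, where 48.2% of all probe sets were higher. For experiment 2 the counts were 11 higher and 21 lower, where 45.1% of all probe sets were higher. Over both experiments unadjusted p was under 0.05 for 3, against 12.4% of all probe sets, and all 3 were negative, against 7.68%. They were Mcm7, a subunit of the replicative helicase (-0.23 ± 0.07), Rrm1, the large subunit of ribonucleotide reductase (-0.13 ± 0.05), and Ccne2, cyclin E2 (-0.16 ± 0.06). Mcm2, of the same helicase, differed by 0.09 ± 0.07. The 9 cycling-cell markers above are also in this list.

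**Figure D4:**
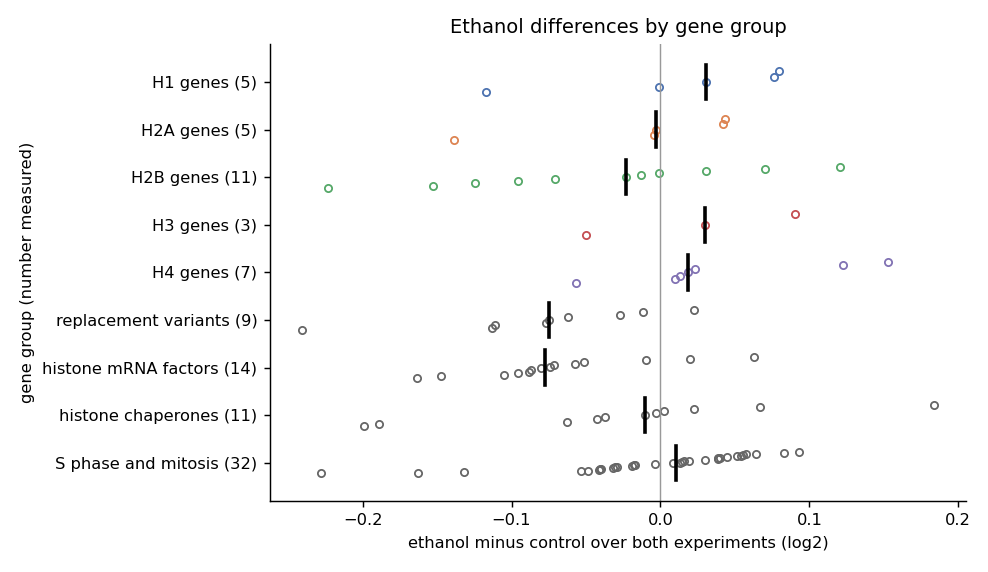
Ethanol minus control difference over both experiments, in log2 units, for each gene (circles) of the 5 histone classes, the replacement variants, the factors for histone gene transcription and mRNA processing, the histone chaperones and the genes of S phase and mitosis, with the median as a black line. The medians are within 0.03 of 0 for the 5 histone classes, -0.07 for the replacement variants and -0.08 for the transcription and processing factors.

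Other tissue markers were not even across these arrays. All 4 pituitary markers had positive differences in each experiment. They averaged 9.63 and 8.34 log2 units with ethanol in experiment 1, where the control pools averaged 5.73 and 5.92. In experiment 2 they averaged 6.68, 10.7 and 6.67 with ethanol, against 6.60, 6.55 and 7.24 in the control pools. The 4 choroid plexus and 4 cerebellar markers all had negative differences, with medians of -0.278 and -0.215 over both experiments.

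H1f2 was above the control pools in the 2 ethanol pools of experiment 1, which had high pituitary signal. In experiment 2 it read 9.87 in the ethanol pool with the highest pituitary signal, between the other ethanol pools. The part of these tissues in the histone values was not tested. Neurons, oligodendrocyte precursors and neuroblasts, from lists of 5, 3 and 4 markers measured, had median differences of 0.04, 0.00 and -0.01, and 0 markers of these lists had an unadjusted p under 0.05. Microglial markers had a median of 0.01 over 3 measured, and Alas2, the 1 red cell marker measured, differed by 0.05. The 3 astrocyte markers were all below 0, with a median of -0.11 and 2 at an unadjusted p under 0.05. Of 2 oligodendrocyte markers 1 was below 0 at that p. Of all probe sets 12.4% had such a p over both experiments, 7.68% with a negative difference. The markers of these last 2 lists lay at the 69.6 to 98 percentiles of signal. From the median signal to the 75th percentile 22.7% of all probe sets were positive, and above it 22.5% were. The signs of these markers were not tested against signal level.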

How the data were processed

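Whole-brain RNA pools were measured on Affymetrix whole-transcript arrays, from 200 ng of total RNA per array per the labels' protocols. The values the authors deposited are log2 signals for 35556 probe sets on 10 arrays. The submitters' processing notes name Partek 6.6. How background was corrected, arrays were normalized and the experiments were equalised is not given in the sources used here. Gene symbols came from GEO's platform annotation, with 21789 listed for 1 symbol and 1621 for several. That annotation uses current symbols, so histone genes were found through the older symbols of the RefSeq gene table (GRCm38.p6).

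Differences were tested with limma 3.58.1 in R 4.3.3 (lmFit, eBayes, two-sided, Benjamini-Hochberg over 21789 probe sets). Treatment and experiment entered the joint fit (7 residual degrees of freedom), and a fit of 4 group means gave each experiment and their difference (6). Values with ± are SE. The number of arrays limits the precision, with a median SE of 0.0519. Values of every array are given for the brightest gene and the smallest p of each class and for the 3 smallest p of each experiment and of their difference, with testis histones and those with polyadenylated forms in human cells named. Of other lists the 4 smallest p are named; 1 probe set per gene, the brightest, was used. Members and lists were chosen with earlier results of these data known. Alternatives changed the normalization, centring, filter, variance prior, weights, terms and arrays used. The fit was tested on simulated data. Figures were drawn with matplotlib 3.10.9.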

Additional observations from a re-analysis of the deposited data

Results flagged for a closer look

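H1f2 had each ethanol pool above the control mean in experiment 1 and each below it in experiment 2. The ethanol difference in experiment 2 minus that in experiment 1 was -0.362 log2 units by the interaction term of limma (adjusted p = 0.696), and over the alternatives tried its adjusted p ran from 0.376 to 0.931.

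H2bc4 had the same arrangement at a smaller size, with a difference of -0.156 (limma, unadjusted p = 0.172). Its ethanol pools lay above the control mean in experiment 1 and below it in experiment 2, by less than the distance between the control pools of experiment 1.

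The median over the 31 histone genes, relative to the control mean, was above 0 on both ethanol arrays of experiment 1 and below 0 on the 3 of experiment 2, and the means of these array medians differed by -0.0975. The ethanol pools of experiment 2 stood at -0.04, -0.02 and -0.01, against 0.01, 0.03 and -0.06 in the control pools, so that control pool 3 lay below all of them. For the 11 H2B genes the array medians were 0.04 and 0.07 in experiment 1 and -0.09, -0.06 and -0.15 in experiment 2, and their means differed by -0.158. The H2B control pools stood at 0.08 and -0.08 in experiment 1, a range that held both ethanol pools, and at 0.04, 0.06 and -0.08 in experiment 2. These last 2 differences were not tested.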

How the results depend on the processing

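Over the 22 alternative settings 0 of the 31 histone genes passed adjusted p 0.05 in any of the comparisons. The median differences over both experiments and within each moved by less than the spread between arrays (0.0674). That spread is larger than the medians over both experiments (0.00984) and in experiment 2 (-0.0304), and both of these changed sign. Over both experiments the median was -0.00112 above the 25th percentile of signal and -0.00454 above the median signal. It was 0.0393 with median centring and ran from -0.00898 to 0.0212 with 1 array left out. In experiment 2 the median turned to 0.00127 with median centring and 0.0053 without its control replicate 2. Counts at an unadjusted p under 0.05 were small and moved. Over both experiments (1 higher, 2 lower) there were 4 lower after quantile normalization, 2 higher and 1 lower with median centring, 0 higher over all probe sets, and 0 higher and 1 lower by the unmoderated model. In experiment 1 (4 higher) there were 2 with array weights and 2 with that experiment fitted alone. In experiment 2 (1 higher, 5 lower) there were 0 higher after quantile normalization and over all probe sets, and 0 higher and 2 lower by the unmoderated model. Only 9 histone genes lie above the median signal. Among these the counts were 0 and 0 over both experiments, 0 higher in experiment 1, 0 higher and 1 lower in experiment 2 and 1 lower for the difference between experiments. Positive differences among these 9 numbered 3, 6, 3 and 3 in the same order, against 16, 25, 12 and 6 of the 31.

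Leaving out 1 array gave 0 to 2 higher and 0 to 5 lower over both experiments (5 without control replicate 2 of experiment 1, 0 without ethanol replicate 2 of experiment 2), 0 to 1 lower in experiment 1, 0 to 1 higher and 2 to 6 lower in experiment 2, and 0 to 1 higher and 2 to 8 lower for the difference between experiments, whose median ran from -0.156 to -0.0774. With 1 array left in an arm, that array is assumed to vary like the other groups.

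H2aw (-0.00454) turned to 0.0374 after quantile normalization, 0.0249 with median centring and 0.00465 with array weights, and ran from -0.0299 to 0.00791 with 1 array left out. H2bc4 (-0.0127) turned to 0.0156 after quantile normalization, 0.0167 with median centring and 0.00284 with weights by mice per pool, and ran from -0.063 to 0.0205. H3c4 ran from -0.01 to 0.0582 and H4c4 from -0.0144 to 0.0309. The cause of these turns was not tested.

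Arrays with the same number did not deviate together in every pair (correlations from -0.146 to 0.23), so the numbers were not taken to pair pools. With a replicate block the counts were 1 higher and 2 lower over both experiments, and 0 genes passed adjusted p 0.05.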

Other observations

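The 27 probe sets listed for several genes with a replication-dependent histone among them hold most of the close copies. In a fit to all 35556 probe sets they had a median difference of -0.05 log2 units over both experiments, with 4 positive and 23 negative, against a median of 0.00 over all. In experiment 1 the median was 0.01, with 18 positive and 9 negative, and in experiment 2 it was -0.09, with 3 positive and 24 negative. limma called 0 at adjusted p 0.05 and 0 at an unadjusted p under 0.05 in each of these, where 9.68% of all probe sets had such a p over both experiments. Many of these probe sets share the same genes, so they are not independent. Their signals ran from 5.98 to 11.6 log2 units. Among probe sets with 1 gene symbol, 45.6%, 48.2% and 45.1% were positive over both experiments, in experiment 1 and in experiment 2. Over both experiments, 57.9% of those between 5.87 and 7.37 log2 units were positive, 22.7% between 7.37 and 9.25, and 22.5% above. The sign counts of the 27 were not tested against signal level.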
